A study of Mus musculus with 9 samples.

Results

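The 10 genes described here encode the enzymes that place, copy and oxidise DNA methylation and the proteins that keep it at imprinted loci. They were taken by symbol, 10 of the 24736 genes in the expression table, and were chosen with earlier results of these data known. They are Dnmt1 and Uhrf1 (maintenance), Dnmt3a, Dnmt3b and Dnmt3l (de novo methylation), Tet1, Tet2 and Tet3 (oxidation of methylcytosine), and Zfp57 and Trim28 (protection of imprints). Their transcripts were compared in caudal epiblast-like cells (CEpiLCs), a culture counterpart of the progenitors that build the trunk, made from mouse embryonic stem cells (ESCs). The groups were wild type (WT), Cdx1/2/4-/- triple mutants (CdxKO) and T/Bra-/- mutants (T/BraKO), with 3 biological replicates each. Every culture received bFGF at 10 ng per ml and LGK974, a Porcupine inhibitor that stops WNT secretion, at 5 uM. The GSK3 inhibitor CHIR99021, which activates WNT signalling, was added for the last day, and all cells were collected at 72 h (day 3).

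In mammals, methylation of cytosine in CpG dinucleotides is copied at each round of DNA replication by DNMT1, which UHRF1 brings to hemimethylated DNA. DNMT3A and DNMT3B add new methyl groups and DNMT3L, which has no catalytic activity of its own, stimulates them. The TET enzymes oxidise methylcytosine and so start its removal. ZFP57 binds a methylated motif at imprinting control regions and recruits TRIM28 (KAP1), which gathers the repressive complex that keeps the parental mark. Pluripotent cells that leave the naive state take on methylation genome wide, and DNMT3B is the enzyme most closely tied to that transition in the epiblast.

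RefSeq lists 19 transcription start windows for these genes, each of 300 bases, from 250 bases before to 50 after the start (GRCm38.p6). Those of Dnmt3b and Tet2 are shown because these were the genes that differed between T/BraKO and WT once the replicate number was taken into account. The Dnmt3b window lies at chr2:153649199-153649498 on the plus strand and the Tet2 window at chr3:133544341-133544640 on the minus strand. Both are written 5′ to 3′ along the gene, with each CpG in capitals.
Dnmt3b: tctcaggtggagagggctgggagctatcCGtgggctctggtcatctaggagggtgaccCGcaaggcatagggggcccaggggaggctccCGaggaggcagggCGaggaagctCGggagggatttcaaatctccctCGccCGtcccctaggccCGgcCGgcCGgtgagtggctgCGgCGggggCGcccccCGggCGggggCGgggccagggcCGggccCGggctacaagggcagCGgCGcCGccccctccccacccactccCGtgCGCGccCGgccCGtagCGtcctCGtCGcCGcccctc
Tet2: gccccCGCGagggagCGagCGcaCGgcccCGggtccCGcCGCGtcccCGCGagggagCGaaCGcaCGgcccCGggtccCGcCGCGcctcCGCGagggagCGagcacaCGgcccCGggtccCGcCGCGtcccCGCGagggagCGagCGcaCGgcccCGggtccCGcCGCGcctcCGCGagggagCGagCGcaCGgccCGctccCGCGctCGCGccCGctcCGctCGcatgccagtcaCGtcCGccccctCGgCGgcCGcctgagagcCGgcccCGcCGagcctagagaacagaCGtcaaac
The Dnmt3b window held 30 CpGs and the Tet2 window 57, against a median of 7 over 32851 RefSeq windows of the same length. Fewer CpGs were found in 88.3% and 99.8% of all windows, respectively. The windows of Dnmt3l held 3 to 6 CpGs and those of Zfp57 held 4 to 9, whereas those of Dnmt3a held 18 to 47. The half-site AGGTGTGA, which T is known to bind, was searched on both strands and was in 0 of the 19 windows and in 1.28% of all windows. The CDX motif TTTATNG was in 1 of the 19, a window of Zfp57, and in 10.9% of all windows. The GC box GGGCGG was in 13 of 19 against 35.7% of all windows. Motif matches are descriptions of these letters only.

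Total expected counts ranged from 25124337 to 34705355 per library, so that 3 counts corresponded to 0.0864 to 0.119 CPM. In T/BraKO, T fell by 2.42 on the log2 scale against WT (adjusted p = 7.8e-10, DESeq2), and in CdxKO, Cdx1, Cdx2 and Cdx4 fell by 0.98, 2.03 and 6.14 (adjusted p = 0.0037, 0.015 and 2.1e-12). All lines used in the study were derived from an XY ESC line, according to its methods. Yet the 4 Y-linked genes followed, Ddx3y, Eif2s3y, Kdm5d and Uty, were all called lower in CdxKO than in WT (DESeq2). Ddx3y had 0 counts in the 3 CdxKO libraries, and the others reached at most 2.68 normalised counts there. Xist lay between 5.02 and 16.5 normalised counts in all 9 libraries. The labels give a genotype but do not say how many lines or clones stand behind it, so effects of a line and of the mutation cannot be told apart. Of 12 markers of caudal epiblast-like cells, which include the 4 targeted genes, none was at 0 in all libraries, 7 were lower in CdxKO than in WT (9 with the replicate number), and 3 were lower and 1 higher in T/BraKO than in WT (3 lower and 4 higher with it). Libraries with the same replicate number deviated from their group means together (correlation across genes 0.532 to 0.814 over 9 pairs), so every comparison was fitted without and with the replicate number. Below, libraries of one number are called a series.

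Within a library, the 10 transcripts spanned a wide range of TPM, a measure scaled for transcript length. Trim28 was the most abundant, with a mean of 550.0 TPM over the 9 libraries (486 to 636). Uhrf1 followed with 211 TPM (192 to 226), Dnmt3b with 191 (125 to 303) and Dnmt1 with 151 (139 to 167). Zfp57 had a mean of 44.3 TPM, Dnmt3a 37.8, Tet3 17.1, Tet1 14.9 and Dnmt3l 7.14. Tet2 was lowest, at 2.56 TPM (1.44 to 4.22).

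The order was not equally firm at every step. Trim28 exceeded Uhrf1, Dnmt1 exceeded Zfp57, Dnmt3a exceeded Tet3, Tet1 exceeded Dnmt3l and Dnmt3l exceeded Tet2 in 9 of 9 libraries. Uhrf1 exceeded Dnmt3b in only 6 of 9, since Dnmt3b was the second most abundant of the 10 in replicate 3 of each genotype. Dnmt3b exceeded Dnmt1 in 6 of 9, Zfp57 exceeded Dnmt3a in 7 of 9, and Tet3 exceeded Tet1 in 6 of 9, the exceptions being replicate 2 of each genotype. Among the de novo enzymes, Dnmt3b carried 3.30 to 8.54 times the TPM of Dnmt3a.

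**Figure D1:**
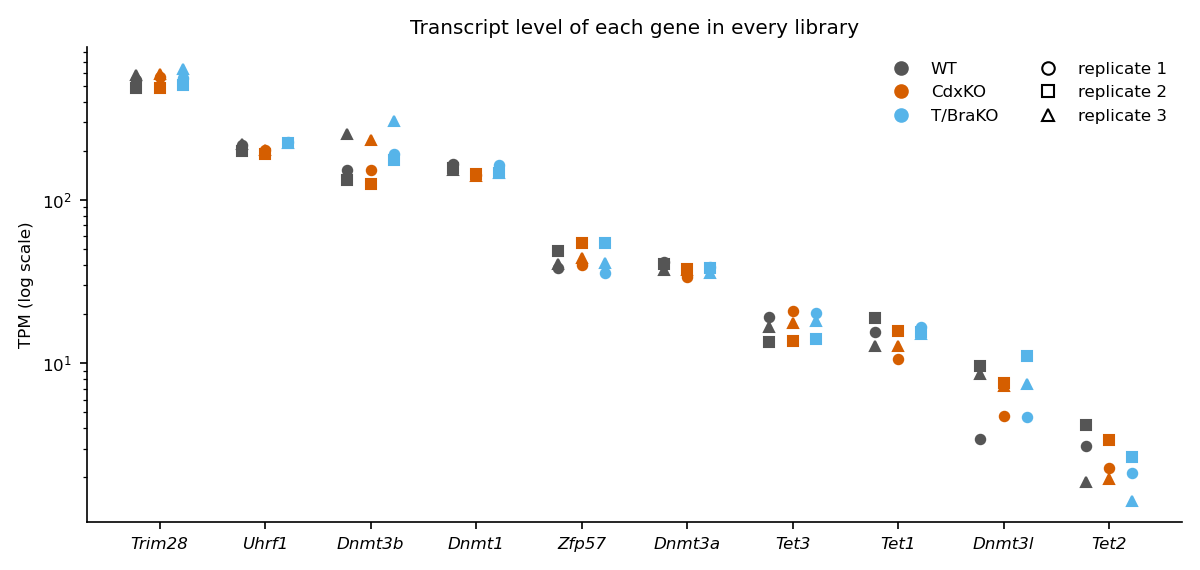
TPM (vertical axis, log scale) of each gene (horizontal axis, ordered by mean) in every library, with genotype as colour and replicate number as symbol. Trim28 lies above all others in each library and Tet2 below all others, while Dnmt3b spreads from 125 to 303 TPM.

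Do CDX factors or T/BRA alter the expression of the methylation enzymes? With genotype as the only term, 0 of the 10 genes passed an adjusted p of 0.05 in CdxKO against WT (DESeq2), where 0.693% of all tested genes did. Neither did any in T/BraKO against WT, where 1.08% of genes passed, nor in CdxKO against T/BraKO, where 3.48% passed. At an unadjusted p of 0.05, 1, 0 and 1 genes passed in these comparisons, and the quasi-likelihood test of edgeR called 0, 0 and 0 (0, 0 and 1 at an unadjusted p of 0.05). The median log2 fold change of the 10 genes was -0.10, 0.10 and -0.11, beside 0.00, 0.00 and -0.0015 over all genes.

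With the replicate number in the fit, 0 of the 10 passed in CdxKO against WT (5.31% of all genes did), although Dnmt1 came close to the threshold. At an unadjusted p of 0.05, 2 of the 10 passed here, and edgeR with the replicate number called 0 (3 at an unadjusted p of 0.05). In T/BraKO against WT, 2 of the 10 passed, Dnmt3b being higher (4.83% of all genes were) and Tet2 lower (4.85%), against 9.68% of all genes in either direction. In CdxKO against T/BraKO, 2 of the 10 were lower, Dnmt3b and Uhrf1, against 6.9% of all genes lower and 14.6% called in either direction. Both comparisons with WT use the same WT libraries, and the mutants are each in 2 of the 3 comparisons. All 4 calls were also made by edgeR with the replicate number.

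**Figure D2:**
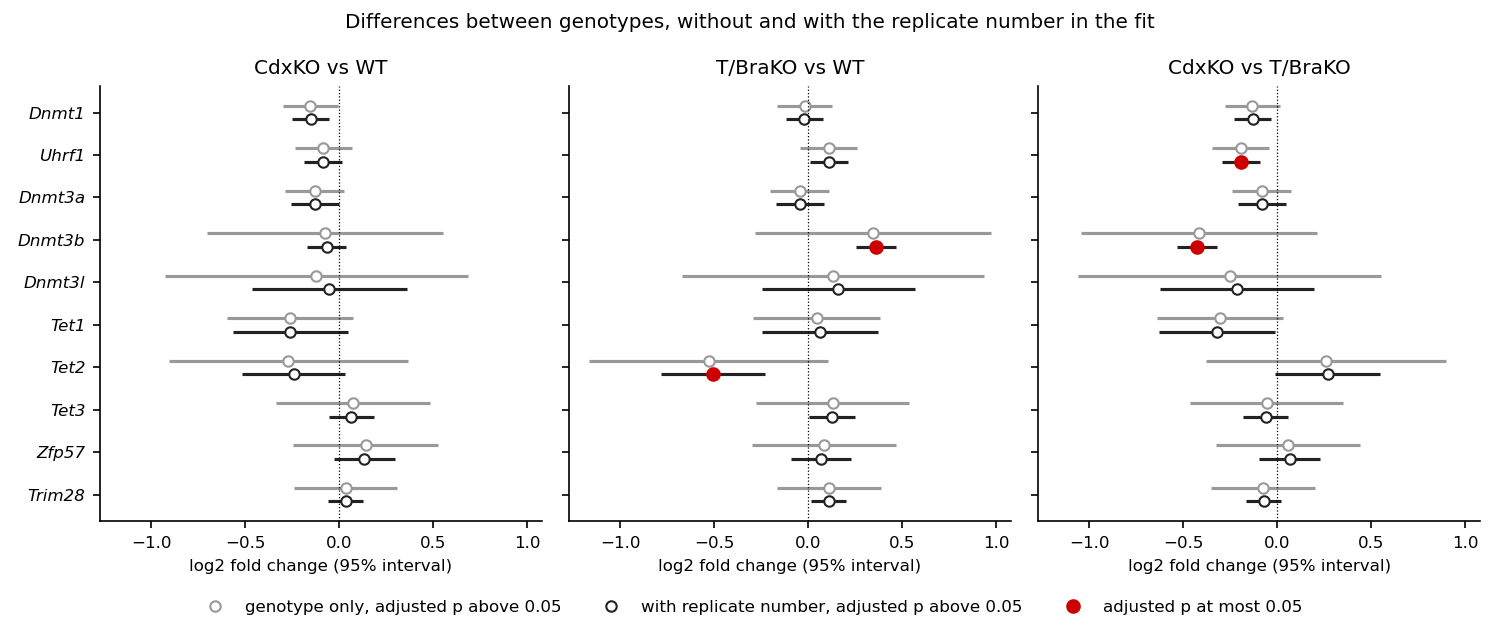
Log2 fold change (horizontal axis) with its 95% interval for each gene in the 3 comparisons, in DESeq2 fits with genotype only (grey) and with the replicate number added (black, red where the adjusted p is at most 0.05). The estimates stay close between the fits, while the interval of Dnmt3b narrows from -0.29 to 0.97 to between 0.25 and 0.46 in T/BraKO against WT.

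DNMT1 and UHRF1, the maintenance pair, were among the steadiest transcripts of the group, each within 1.22-fold over the 9 libraries. Dnmt1 lies at chr9:20907209-20959888 on the minus strand and Uhrf1 at chr17:56303321-56323486 on the plus strand (GRCm38, as for all gene positions here). Normalised counts of Dnmt1 were 12648, 11707 and 11773 in WT replicates 1, 2 and 3, 10926, 10810 and 10757 in CdxKO, and 12752, 11314 and 11581 in T/BraKO. All CdxKO libraries thus lay below all WT and all T/BraKO libraries, while WT and T/BraKO overlapped. In CdxKO against WT the ratio was 0.90 (95% interval 0.84 to 0.96) with the replicate number, and the adjusted p was 0.0534 by DESeq2 (0.91 without the replicate number). Lower values in every library of one group were found for 4.28% of genes with a mean of at least 50 normalised counts. Among 9 fits with the replicate number that each left out a library, Dnmt1 passed in 2, without T/BraKO replicate 1 (adjusted p = 0.034, DESeq2) and without T/BraKO replicate 2 (0.0172), and its adjusted p was highest, 0.439, without CdxKO replicate 1.

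Uhrf1 read 10707, 9805 and 11182 normalised counts in WT, 10155, 9451 and 10295 in CdxKO, with 11519, 11236 and 11446 in T/BraKO. Every T/BraKO library lay above every WT and every CdxKO library, whereas WT and CdxKO overlapped. Of genes with a mean of at least 50, 4.54% had every T/BraKO library above every WT library. Between the mutants, the mean was 9967 ± 452 (SD, n = 3) in CdxKO and 11400.4 ± 147 in T/BraKO. The log2 fold change of CdxKO against T/BraKO was -0.20 (SE 0.051, DESeq2 adjusted p = 0.0021 with the replicate number, 0.20 without). Pair by pair, CdxKO stood at 0.88, 0.84 and 0.90 of T/BraKO, and a lower value in all 3 pairs was seen for 30% of genes. Against WT, T/BraKO was 1.08-fold (95% interval 0.011 to 0.21 on the log2 scale) and did not pass (adjusted p = 0.17, DESeq2), nor did CdxKO (0.94-fold, interval 0.88 to 1.01, adjusted p = 0.49).

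Genes of DNA replication, which like Uhrf1 are transcribed most in cycling cells, moved in the same comparison. Of 14 S-phase genes, 8 were lower and 1, Ccne2, higher in CdxKO than in T/BraKO with the replicate number (2 lower and 0 higher without it), with Mcm7 at -0.24 and Mcm6 at -0.23 on the log2 scale. Of all genes, 6.9% were lower and 14.6% passed in either direction with the replicate number, and 3.48% passed without it. The summed TPM of the 14 genes was 2602 to 2819 in CdxKO and 2820 to 3136 in T/BraKO. The WT libraries, at 2634 to 3006, overlapped both. The part of cell cycle state in the Uhrf1 difference was not tested. In bulk RNA, fewer cells of a type and less RNA per cell cannot be told apart.

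**Figure D3:**
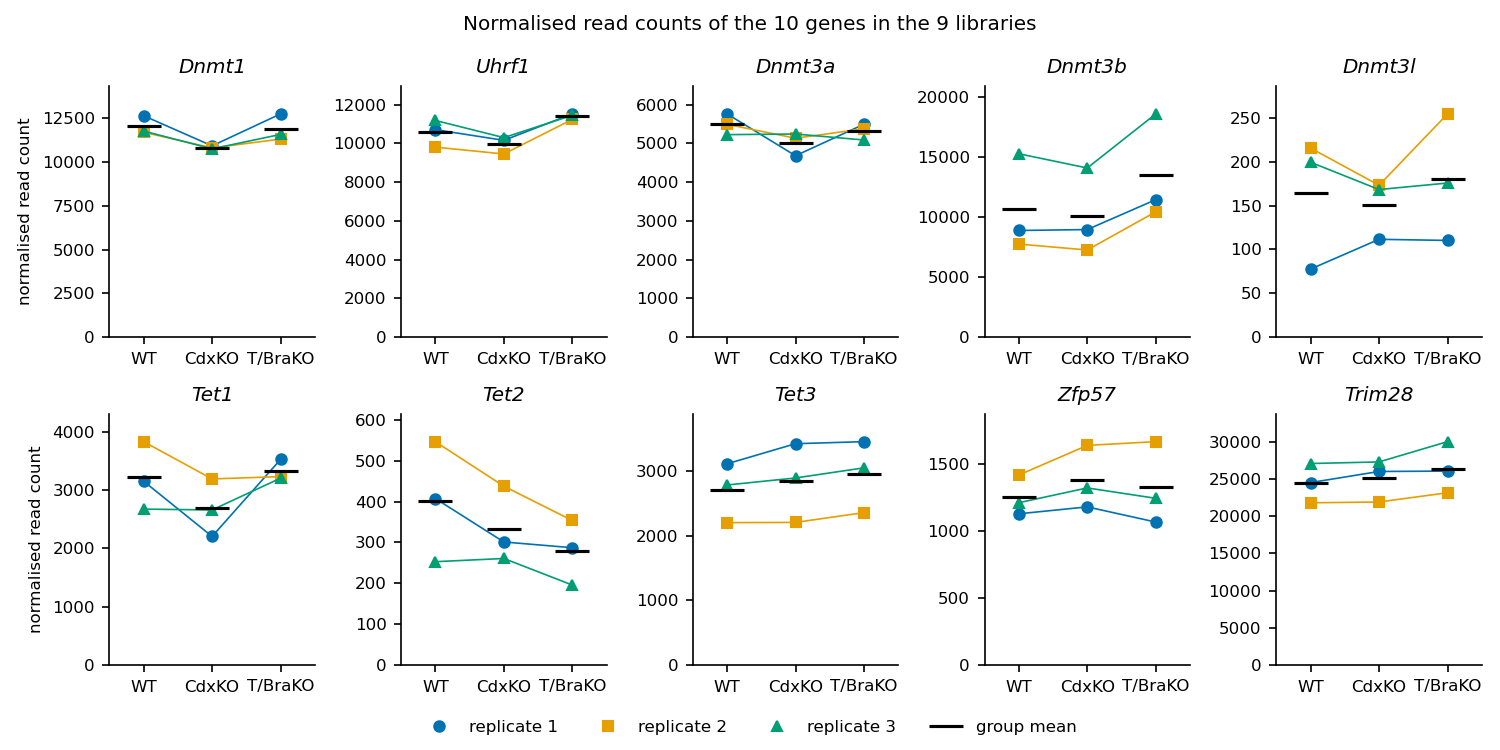
Normalised read counts (vertical axes, from 0) of the 10 genes by genotype, with replicates of one number joined by a line and the group mean as a bar. Lines of different replicates do not cross for Dnmt3b, Tet2, Tet3, Zfp57 and Trim28, and for Dnmt3b each line rises from WT to T/BraKO.

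Dnmt3b showed the clearest difference between genotypes once series were compared. The gene lies at chr2:153649450-153687730 on the plus strand. Its normalised counts were 8883, 7751 and 15272 in WT, 8960, 7259 and 14086 in CdxKO, with 11449, 10438 and 18590.3 in T/BraKO. Replicate 3 was highest in each genotype, so the groups overlapped, with means of 10635 ± 4055 in WT, 10102 ± 3554 in CdxKO with 13493 ± 4444 in T/BraKO (SD, n = 3). Within each series, T/BraKO was highest, at 1.29, 1.35 and 1.22 times WT in series 1, 2 and 3. An increase in all 3 series of T/BraKO over WT was seen for 29.2% of genes with a mean of at least 50.

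The log2 fold change of Dnmt3b in T/BraKO against WT was 0.36 (SE 0.054, adjusted p = 3.10e-09, DESeq2 with the replicate number), a 1.28-fold increase (95% interval 1.19 to 1.38). Without the replicate number it was 0.34 with an SE of 0.32 and an adjusted p of 1.00. In CdxKO against T/BraKO it was -0.43 (SE 0.054, adjusted p = 2.58e-13 with the replicate number, 0.77 without, DESeq2), and CdxKO stood at 0.78, 0.70 and 0.76 of T/BraKO. By edgeR with the replicate number the adjusted p was much larger, 0.0022 in T/BraKO against WT and 0.00036 between the mutants. CdxKO and WT did not differ past the threshold, with a fold of 0.95 (95% interval 0.89 to 1.03). Both calls were kept in the 9 fits that left out a library with the replicate number, where the log2 fold change ranged from 0.31 to 0.39 and from -0.46 to -0.38.

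Of 5 epiblast markers, 1 differed between T/BraKO and WT with the replicate number, where 9.68% of all genes did. Pou5f1 read 11611, 14005 and 18624 normalised counts in WT and 18062, 20775 and 25219 in T/BraKO, a log2 fold change of 0.55 (adjusted p = 3.0e-14, DESeq2 with the replicate number, 0.49 without). Pou5f1 was also higher in CdxKO than in WT (0.22, adjusted p = 0.022, DESeq2 with the replicate number), where Dnmt3b did not pass. Between the mutants, Pou5f1 and Fgf5 were lower in CdxKO, as was Dnmt3b, and 0 of the 5 were higher (DESeq2 with the replicate number). Without the replicate number, 0 of the 5 passed between the mutants. All 5 markers were highest in replicate 3 of each genotype, with Fgf5 at 239, 153 and 833 in WT. The summed TPM of the 5 markers was 742 to 1239 in WT, 924 to 1372 in CdxKO and 1088 to 1602 in T/BraKO, and none was at 0. The part of epiblast state in the Dnmt3b difference was not tested.

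Dnmt3a and Dnmt3l, the other 2 de novo members, passed in no comparison. Dnmt3a lies at chr12:3806007-3914443 and Dnmt3l at chr10:78041947-78063622, both on the plus strand. Dnmt3a read 5759, 5490.1 and 5224 in WT, 4680.0, 5131 and 5240.1 in CdxKO, with 5493, 5377 and 5085.5 in T/BraKO, and all groups overlapped. In CdxKO against WT its ratio was 0.91 (95% interval 0.84 to 1.00 with the replicate number, adjusted p = 0.33 by DESeq2), with series 1 at 0.81 and series 3 at 1.00. Dnmt3l, read at a far lower level, gave 77.6, 216 and 200 in WT, 112, 173 and 168 in CdxKO, with 110, 255 and 176 in T/BraKO. Replicate 1 was lowest in each genotype. Its log2 fold change in T/BraKO against WT was 0.16 with a 95% interval of -0.25 to 0.57, wide enough to hold the difference seen for Dnmt3b.

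Of the TET enzymes, Tet2 alone passed a test. It lies at chr3:133463679-133545139 on the minus strand, with Tet1 at chr10:62804570-62908996 and Tet3 at chr6:83362373-83459084, also on the minus strand. Normalised counts of Tet2 were 407, 546 and 253 in WT, 301, 438 and 261 in CdxKO, with 287, 354 and 196 in T/BraKO. Replicate 3 was lowest and replicate 2 highest in each genotype, and the groups overlapped, with means of 402 ± 147 in WT and 279 ± 79.3 in T/BraKO (SD, n = 3). T/BraKO stood at 0.70, 0.65 and 0.77 of WT in series 1, 2 and 3, and 22.6% of genes were lower in all 3. The log2 fold change was -0.51 (SE 0.14, adjusted p = 0.0065, DESeq2 with the replicate number), whereas without it the value was -0.53 (SE 0.32, adjusted p = 1.00). CdxKO lay between them, at 0.85 of WT (95% interval 0.70 to 1.02) and 1.20 times T/BraKO (0.99 to 1.46), neither past the threshold.

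The Tet2 call was less stable than that of Dnmt3b. Leaving out 1 library in the fit with the replicate number kept it past the threshold in 5 of 9 fits, and the adjusted p was 0.142 without WT replicate 1, 0.184 without WT replicate 2, 0.104 without T/BraKO replicate 2 and 0.0749 without T/BraKO replicate 3. The direction was kept, with log2 fold changes of -0.61 to -0.45. ESCs were propagated on fibroblast feeders, from which they were separated by timed plating before differentiation, according to the study's methods. With the replicate number, 4 of 10 fibroblast markers were lower in T/BraKO than in WT (2 without) and 0 were higher. Of all genes, 4.85% were lower with the replicate number, and 1.08% passed in either direction without it. The lower markers were Col1a1 (-0.96), Col1a2 (-0.81), Pdgfrb (-0.85) and Postn (-2.48). Of the 6 not called, Dcn (0.74), Col6a3 (0.63), Thy1 (0.46) and Loxl1 (0.11) had positive values and Col3a1 (-0.11) and Lum (-0.43) negative ones. The summed TPM of the 10 markers was 40.6 to 71.9 in WT, 49.0 to 89.2 in CdxKO and 38.0 to 60.0 in T/BraKO. The part of such cells in the Tet2 difference was not tested.

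Tet1, the main TET enzyme of pluripotent cells, read 3156, 3835 and 2677 in WT, 2207, 3195 and 2662 in CdxKO, with 3530.4, 3235 and 3208 in T/BraKO. All CdxKO values lay below all T/BraKO values, as they did for Dnmt1 and Uhrf1, a pattern found in 7.58% of genes. The fold between them was 0.80 (95% interval 0.65 to 0.99), but the adjusted p was 0.17 (DESeq2 with the replicate number, 0.54 without). In CdxKO against WT the ratio of Tet1 was 0.84 (95% interval 0.68 to 1.03, adjusted p = 0.47, DESeq2 with the replicate number). Among 9 fits with the replicate number that each left out a library, the one without T/BraKO replicate 2 called Tet1 in both comparisons of CdxKO. Fits that left out a library without the replicate number never called Tet1. Tet3 read 3115, 2203 and 2787 in WT, 3426, 2207 and 2895 in CdxKO, with 3458, 2359 and 3052 in T/BraKO. T/BraKO exceeded WT by 1.11, 1.07 and 1.10 times in the 3 series, a 1.09-fold difference with an interval of 1.00 to 1.19 and an adjusted p of 0.20 (DESeq2 with the replicate number). Summed over the 3 enzymes, TET transcripts came to 35.2 ± 3.35 TPM in WT, 33.0 ± 0.713 in CdxKO with 35.4 ± 3.53 in T/BraKO (SD, n = 3).

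The imprint protectors Zfp57 and Trim28 did not differ past the threshold in any comparison. They lie on the plus strand at chr17:37001163-37010635 and chr7:12999114-13031035. Zfp57 read 1131, 1421 and 1214 in WT, 1183, 1643 and 1324 in CdxKO, with 1069, 1671 and 1247 in T/BraKO. In CdxKO against WT it was 1.10-fold with a 95% interval of 0.98 to 1.23 and was higher in 3 of 3 series, as were 24.1% of genes (adjusted p = 0.49, DESeq2 with the replicate number). Trim28 read 24526, 21807 and 27091 in WT, 26022, 21920 and 27307 in CdxKO, with 26074, 23158 and 30033 in T/BraKO. On the log2 scale it gave the narrowest interval of the 10 in CdxKO against WT, -0.058 to 0.13, and in T/BraKO it was 1.08-fold (1.01 to 1.15, adjusted p = 0.14, DESeq2 with the replicate number).

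How much of the spread went with genotype and how much with the series differed sharply among the genes. Shares of the sum of squares of log2 counts over the 9 libraries were used as a description. The replicate number took 94.4% for Tet3, 87.9% for Trim28, 87.4% for Zfp57, 84.8% for Dnmt3l, 81.1% for Dnmt3b and 73.2% for Tet2. Genotype took a larger share than the replicate number for Uhrf1 (67.1%), Dnmt1 (62.3%), Dnmt3a (45.6%) and Tet1 (37.8%). For Dnmt3a and Tet1, however, 49.8% and 35.5% went with neither. Over 12316 genes with a mean of at least 50 the median share was 21.7% for genotype and 58.4% for replicate number.

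For some genes the series differed alike in all genotypes. Dnmt3b in replicate 3 exceeded replicate 1 by 1.72 times in WT, 1.57 in CdxKO with 1.62 in T/BraKO, and Trim28 did so by 1.10, 1.05 and 1.15. Tet2 went the other way, replicate 3 standing at 0.62, 0.87 and 0.68 of replicate 1. Tet3 was lowest and Zfp57 highest in replicate 2 of all genotypes. Others had no such order, the ratio of replicate 3 to replicate 1 being 0.91, 1.12 and 0.93 for Dnmt3a, 0.85, 1.21 and 0.91 for Tet1, and 1.04, 1.01 and 0.99 for Uhrf1 (WT, CdxKO and T/BraKO). Over the 9 libraries the log2 counts of Tet2 and Trim28 correlated at r = -0.96, those of Dnmt3b and Tet2 at -0.92 and those of Tet3 and Zfp57 at -0.89. Given as a description, these values come from libraries that share the series effect.

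**Figure D4:**
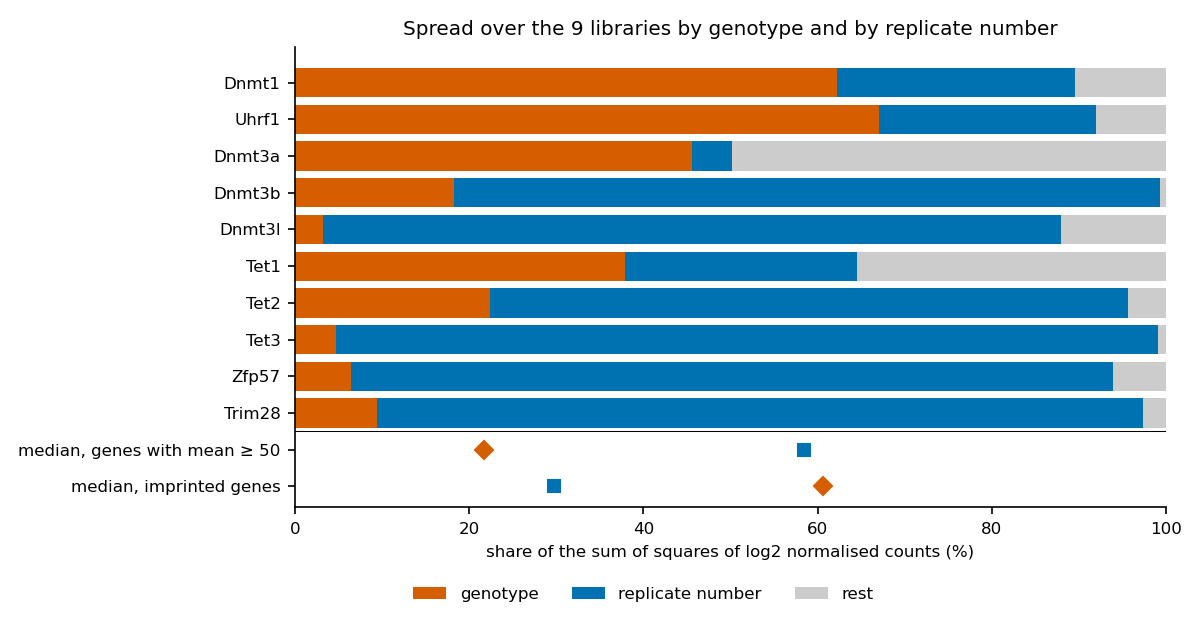
Share of the sum of squares of log2 normalised counts over the 9 libraries (horizontal axis, %) that goes with genotype, with replicate number and with neither, for each gene. Symbols below the line give the medians of the genotype (diamonds) and replicate number (squares) shares over 12316 genes and over 40 imprinted genes, the latter at 60.6% for genotype and 29.7% for replicate number.

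The genes most like the called members over the 9 libraries were found by correlation of log2 counts among 12316 genes. Dnmt3b was most like Pabpn1 (r = 0.991), Pa2g4 (0.990) and Tma16 (0.988). For Uhrf1, 2610318N02Rik (0.978) and Rnmt (0.964) were among the closest, and Tet2 was most like Itpr2 (0.982), Abca5 (0.982) and Mttp (0.979). Again, all 9 points share the series.

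Turning to the rest of the pathway, 44 further genes were followed, including accessory factors, TRIM28 partners, methyl-CpG readers, TET partners with repair enzymes, and the methyl donor cycle. Few of them passed with genotype only, where 0.693%, 1.08% and 3.48% of all genes did. Cxxc4, whose product binds unmethylated CpG and is known to interact with TET2, was the only 1 of 44 in CdxKO against WT, 0 passed in T/BraKO against WT (2 at an unadjusted p of 0.05, 0 by edgeR), and Cxxc5 was the only 1 between the mutants. Medians of the 44 log2 fold changes were -0.063, 0.030 and -0.069 in the 3 comparisons, close to those of all genes.

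Cxxc4 read 82.1, 67.7 and 64.3 in WT, 30.1, 39.3 and 28.2 in CdxKO, with 46.3, 30.2 and 43.9 in T/BraKO. All WT libraries were above all others, and the log2 fold change was -1.12 in CdxKO (adjusted p = 0.038, DESeq2) and -0.83 in T/BraKO (0.28). Every CdxKO library lay below every WT library for 4.28% of genes with a mean of at least 50 normalised counts. Cxxc4 itself had a lower mean than that. Leaving out any 1 of the 6 WT and CdxKO libraries, or T/BraKO replicate 1 or 3, ended the Cxxc4 call, and edgeR without the replicate number did not make it. Cxxc5 read 3767, 3763 and 4141 in WT, 3719, 3487 and 3871 in CdxKO, with 4641, 4483 and 5052 in T/BraKO. Every T/BraKO value was above every other. Of genes with a mean of at least 50, 4.54% showed this against WT and 7.58% against CdxKO. Cxxc5 was lower in CdxKO than in T/BraKO by a log2 fold change of -0.36 (adjusted p = 0.0027, DESeq2). That call ended without CdxKO replicate 2 or T/BraKO replicate 3.

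With the replicate number, 4, 3 and 10 of the 44 passed in the 3 comparisons, where 5.31%, 9.68% and 14.6% of all genes did, so nothing particular to the list is read from these counts. In CdxKO against WT there were 4. Zfp445, a second zinc finger protein that guards imprints, fell by 0.18 on the log2 scale (adjusted p = 0.029), Ogt, an O-GlcNAc transferase bound by TET proteins, fell by 0.17 (0.035) and Cxxc4 fell by 1.12 (0.032), while Gadd45a, a DNA damage response gene, rose by 0.44 (0.028, all DESeq2). In T/BraKO against WT, 3 rose, namely Cxxc5 by 0.28 (2.6e-05), the repair endonuclease Apex1 by 0.20 (0.0065) and Mat2a, which makes the methyl donor S-adenosylmethionine, by 0.31 (0.0011). Between the mutants 9 were lower and 1 higher in CdxKO, of which Cxxc5 alone also passed without the replicate number. The lower ones were Hells (-0.22), a remodeller needed for methylation of repeats, Usp7 (-0.18), a partner of DNMT1 and UHRF1, the histone methyltransferase gene Setd2 (-0.19), the heterochromatin protein gene Cbx1 (-0.17), Zfp445 (-0.17), Ogt (-0.17), Mat2a (-0.42), Cxxc5 (-0.36) and Apex1 (-0.29), and the higher one was Zbtb38 (0.39), a methyl-CpG reader.

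Imprinted genes are the loci these proteins guard. Of 50 followed, 13 passed in CdxKO against WT (7 higher, 6 lower), 3 in T/BraKO against WT (2 higher, 1 lower) and 14 between the mutants (9 higher, 5 lower in CdxKO), with genotype only (DESeq2), against 0.693%, 1.08% and 3.48% of all genes. With the replicate number these became 26, 14 and 24, against 5.31%, 9.68% and 14.6%. Whether the list differs from the enzymes was not tested. Medians of the log2 fold changes were 0.26, -0.0090 and 0.16, beside 0.00, 0.00 and -0.0015 over all genes. Snurf, which passed in CdxKO with the replicate number, shares a transcript with Snrpn and is uncertain as a separate entry.

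The largest changes among them were in CdxKO. Cdkn1c, which encodes a cell cycle inhibitor, read 1333, 862 and 1399 in WT, 33.9, 37.5 and 29.2 in CdxKO, with 1128, 854 and 921 in T/BraKO, a log2 fold change of -5.16 in CdxKO (adjusted p = 1.83e-87, DESeq2). Grb10 and Phlda2, both growth restraining genes, were lower in CdxKO by -1.73 and -1.63, and the growth factor sink Igf2r by -0.93. On the other side, the non-coding RNA H19 read 33.8, 62.9 and 7.46 in WT, 414, 891 and 314 in CdxKO, with 44.1, 172 and 32.3 in T/BraKO, a log2 fold change of 3.96 in CdxKO (adjusted p = 0.0048, DESeq2). Nnat was higher in CdxKO by 1.66 and Usp29 by 0.95. Of the 10 fibroblast markers, 2 were higher in CdxKO than in WT with the replicate number, Col1a1 (0.94) and Col1a2 (0.43). Thy1 was lower (-0.73), and 0 passed without the replicate number. Of all genes, 5.31% passed with it and 0.693% without. The part of such cells in the H19 values was not tested.

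In T/BraKO the imprinted genes that passed with genotype only were Zrsr1 (-0.54), Zdbf2 (0.45) and Peg13 (0.84). Peg13 read 63.0, 85.1 and 81.1 in WT, 103, 83.9 and 88.4 in CdxKO with 136, 128 and 147 in T/BraKO, all T/BraKO values being above the others. Against WT, 4.54% of genes with a mean of at least 50 showed this. With the replicate number, H19 (1.22), Mest (0.53), Peg10 (0.47), Nap1l5 (-0.97), Igf2 (-0.39) and Peg3 (-0.29) were among the further genes that passed. Members and imprinted genes were measured in the same libraries, and whether the one followed the other was not tested.

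**Figure D5:**
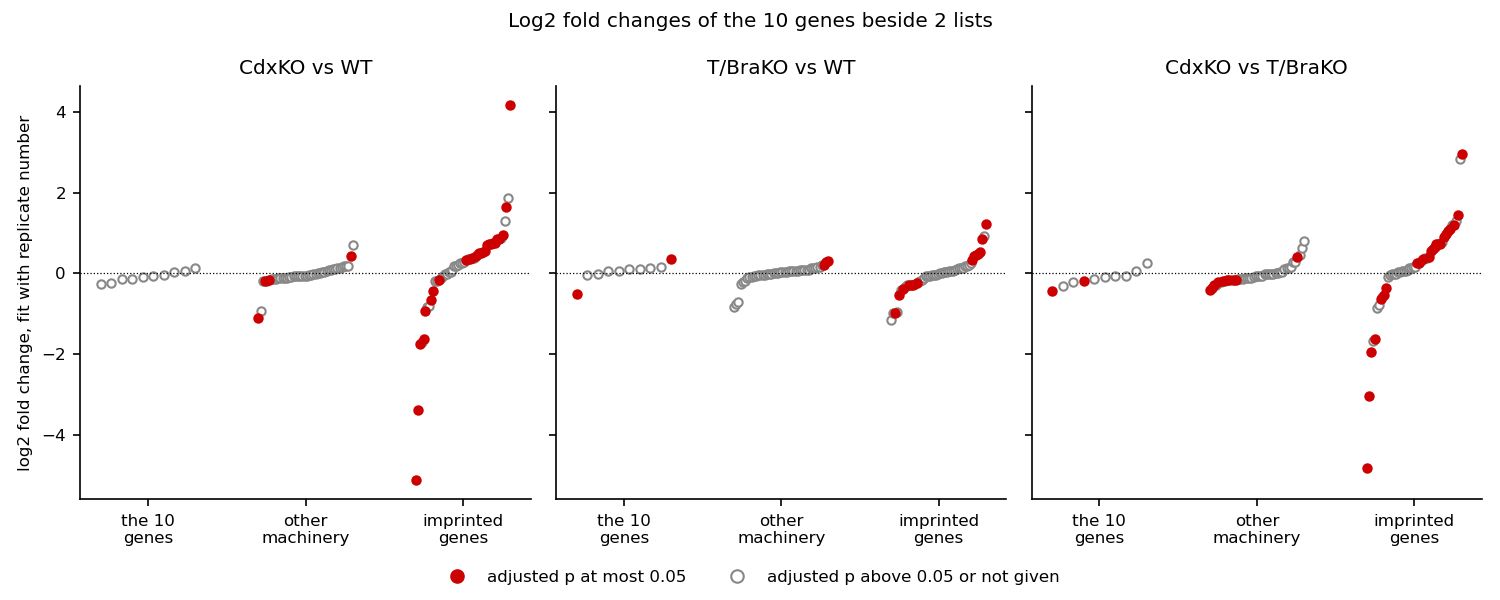
Log2 fold change in the fit with the replicate number (vertical axis) for the 10 genes, 44 other genes of the methylation machinery and 50 imprinted genes, ordered by value within each column, in the 3 comparisons. The 10 genes stay between -0.51 and 0.36, while imprinted genes reach from -5.12 to 4.17.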

How the data were processed

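Poly(A) RNA from 9 cultures was sequenced as strand-specific single-end reads of 76 bases. The authors trimmed reads with cutadapt 1.16 and quantified them with STAR 2.5.2a and RSEM 1.3.0 on mm10 RefSeq genes. They deposited expected counts and TPM per library. All 90 values of the 10 genes were whole numbers, so no fractional assignment was visible. Isoforms were not separated, and Dnmt3c, a neighbouring copy of Dnmt3b, was not analysed here.

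Expected counts were rounded and tested with the DESeq2 1.42.0 Wald test (R 4.3.3) over all genes and 9 libraries, with genotype as the only term. DESeq2 and the adjusted p threshold of 0.05 follow the study's methods, whereas the rounding, the model terms and the joint fit are not stated there. Alternatives were edgeR 4.0.16, TMM factors, a filter of 10 counts in 3 libraries, the replicate block, the 6 libraries compared and leaving out each library. Fits with the block under the last 2 of these and edgeR were added after seeing the data. Size factors were 0.797 to 1.12. Intervals are 95% Wald intervals. Replicate numbers came from the labels. Same-numbered libraries deviated together (r 0.703 on average over 9 pairs), so the numbers were taken as pairs. The mean of -0.340 over the other 18 follows from measuring deviations from group means, so it is not separate support for the pairing. P-values from the fits with genotype only rest on the spread between cultures of a genotype. Those from fits with the replicate number rest on the spread left once the series are taken out. For Dnmt3b that remainder was 0.688% of the sum of squares of log2 counts. No libraries of a group agreed within sampling noise (chi-square per degree of freedom 33.3 to 95.0). The ribosomal Rn45s took 0.343% to 4.21% of counts.

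The members and lists were chosen with earlier results of these data known. The text names all 10 members and, per list, comparison and direction, up to 4 called genes with a mean of at least 50 normalised counts and the largest change, while the other genes named were picked after their values were seen. One result is not reported here. Promoter windows are from RefSeq (GRCm38.p6). The scripts were tested on simulated data. Counting floors cover counting error only. The deposited TPM values were used for levels only.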

Additional observations from a re-analysis of the deposited data

Results flagged for a closer look

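The mutants differed from each other in the direct comparison of CdxKO with T/BraKO, which is a test of whether their differences from WT are unequal, for several genes. Among the 10 genes these were, with the replicate number in the DESeq2 fit, Uhrf1 (log2 fold change -0.20, lower in 3 of 3 series) and Dnmt3b (-0.43, lower in 3 of 3). Without the replicate number the same test gave Cxxc5 at -0.36 and, among imprinted genes, Nap1l5 at 1.41, Nnat at 1.22, Usp29 at 1.10, Cdkn1c at -4.85, Grb10 at -1.92, Phlda2 at -1.61 and Igf2r at -0.63.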

How the results depend on the processing

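With the replicate block the calls among the 10 genes went from 0, 0 and 0 to 0, 2 and 2 in CdxKO against WT, T/BraKO against WT and CdxKO against T/BraKO, and edgeR with the block also gave 2 and 2 in the last 2. It called Dnmt3b at 0.36 and -0.42, Tet2 at -0.51 and Uhrf1 at -0.19, where DESeq2 with the block gave 0.36, -0.43, -0.51 and -0.20. Calls over all genes were 116, 205 and 558 in the main fit, 736, 1237 and 2187 with the block, 16, 56 and 237 by edgeR and 663, 1382 and 2724 by edgeR with the block. Calls among the 44 other machinery genes were 1, 0 and 1, with the block 4, 3 and 10, by edgeR with the block 3, 5 and 12, by edgeR 0 in CdxKO against WT and 0 between the mutants, and 0 with the 6 libraries compared in CdxKO against WT. Imprinted calls of 13, 3 and 14 became 26, 14 and 24 with the block, 5, 0 and 9 by edgeR and 25, 12 and 25 by edgeR with the block. TMM factors and the low-count filter were run without the block only, where the calls among the 10 genes stayed at 0, 0 and 0. The calls made with the block were not tested under these 2 settings.

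Leaving out 1 library gave 0 calls among the 10 genes without the block in each comparison. Over all genes it gave 59 to 140, 118 to 214 and 370 to 630 calls, the lowest without WT replicate 1, WT replicate 1 and T/BraKO replicate 1. The counts without CdxKO replicate 1 (65, CdxKO against WT) and without WT replicate 2 (127, T/BraKO against WT) were also lower by over 1.5 times. Machinery calls were 0 to 1 in CdxKO against WT and between the mutants, and imprinted calls in T/BraKO against WT were 1 to 3, with 1 without WT replicate 1 or T/BraKO replicate 1. With the block kept, calls among the 10 genes were 0 to 2, 1 to 2 and 2 to 4. In both comparisons of CdxKO the count was highest without T/BraKO replicate 2, where Dnmt1 and Tet1 joined. In T/BraKO against WT, Tet2 did not pass in that fit (adjusted p = 0.104, DESeq2).

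Log2 fold changes of uncalled genes changed sign in some of the fits that left out 1 library without the block. In CdxKO against WT the ranges were -0.39 to 0.28 for Dnmt3b, -0.45 to 0.12 for Dnmt3l, -0.52 to 0.016 for Tet2, -0.082 to 0.23 for Tet3 and -0.041 to 0.13 for Trim28. In T/BraKO against WT they were -0.074 to 0.018 for Dnmt1, -0.20 to 0.39 for Dnmt3l, -0.074 to 0.19 for Tet1 and -0.12 to 0.22 for Zfp57. Between the mutants they were -0.51 to 0.080 for Dnmt3l, -0.21 to 0.099 for Tet3, -0.082 to 0.26 for Zfp57 and -0.16 to 0.028 for Trim28. The cause was not tested. With 3 libraries a group, a difference within these intervals could not be resolved.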

Other observations

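Markers of germ cells, in which methylation is erased, were low. The 7 followed summed to 18.1 to 34.7 TPM over the 9 libraries, and with the replicate number 1 was higher and 1 lower in T/BraKO than in WT. Dppa3, whose product limits UHRF1, read 34.9, 114 and 87.6 normalised counts in WT, 41.4, 135 and 67.7 in CdxKO, with 28.7, 62.3 and 43.9 in T/BraKO, with T/BraKO lowest in each of the 3 series but an adjusted p of 0.095 against WT (DESeq2 with the replicate number).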
